A study of Mus musculus with 2 samples.

Results

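The killer-cell lectin-like receptor family comprised every gene of both count tables whose symbol starts with Klra, Klrb, Klrc, Klrd, Klre, Klrg, Klrh, Klri or Klrk, pseudogenes included. This rule, which uses symbols and no measured value, found 30 members among the 48321 genes listed, of which 26 are protein-coding and 4 are pseudogenes in the GENCODE M21 annotation. By symbol they fall into 14 Ly49 genes (Klra), 6 NKR-P1 genes (Klrb), 5 genes of the CD94/NKG2 group (Klrc, Klrd and Klrk), 3 KLRE and KLRI genes, and 2 KLRG genes. No symbol starting with Klrh was listed, because the gene that RefSeq names Klrh1 stands in the tables as Gm156, with 33 and 25 counts, outside the rule.

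The study asked what T cells form when the CD8 co-receptor is kept on throughout selection in the thymus. RNA was sequenced from mature thymocytes (CD24 low, TCRβ high) that lacked surface CD4, sorted from MHC-II0:CD8ab Tg mice on a C57Bl/6 background, in 2 libraries of a single group. These mice lack MHC class II (I-Ab-/-) and the endogenous CD8 coding regions (Cd8 Δab/Δab), and carry CD8α and CD8β cDNAs in the Rosa26 locus (Rosa26 8a/8b), which are switched on by Cd4-Cre during thymocyte development and not in the Cd8 pattern. The sample titles call the cells CD4-CD8- and the cell type field calls them CD8+, the ages of the mice were not given, and the libraries came from mice of different sex by their Ddx3y and Xist counts, so the spread between them holds the difference between animals, sex included, and that of the preparation. Wild-type libraries used in the study were not analysed here, and the values below are therefore levels and not differences between genotypes.

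These receptors are type II membrane proteins with an extracellular C-type lectin-like domain, best known from NK cells, where they weigh signals from MHC class I and related ligands. Inhibitory members carry an immunoreceptor tyrosine-based inhibitory motif (ITIM) in their cytoplasmic tail, which recruits phosphatases such as SHP-1, whereas activating members lack it and pair with adaptors such as DAP12 (Tyrobp) or DAP10 (Hcst). Several of them also appear on memory CD8 T cells, on innate-like T cells and on iNKT cells.

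Gene counts summed to 16732644 for replicate 1 and to 16245849 for replicate 2, and levels were expressed as CPM of that total. A count of 3, the upper limit that a count of 0 allows, corresponded to 0.179 CPM in replicate 1 and 0.185 CPM in replicate 2. All 10 T cell markers examined were at or above 1 CPM in both libraries, from Trbc1 at 112 ± 4.95 CPM to Cd8b1, which the transgene can add to, at 780 ± 7.41 CPM (SD, n = 2, here and for every ± below). Cd4 had 12 and 27 counts, Cd14, which marks monocytes, was at 0 in both, and the Y-linked Ddx3y was at 146 CPM and 0 and Xist at 2.03 and 1555 CPM. The levels of members were ordered and compared with each other per length, as CPM per kb of all annotated exons of a gene merged, while sums and shares of groups are given in CPM or counts, to which longer genes add more.

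Of the 30 members, 19 reached 1 CPM in both libraries, against 26.2% of all genes and 48.9% of protein-coding genes. The 19 were 18 protein-coding members, of 26, and the pseudogene Klra13-ps. The median protein-coding member stood at 2.39 CPM per kb, against 0.279 CPM per kb for all 21157 protein-coding genes with a length. Summed over the family, replicate 1 held 310.5 CPM and replicate 2 held 363 CPM, or 337 ± 37.0 CPM. The CD94/NKG2 group took 47.0 ± 3.24% of the family's counts, the Ly49 genes 37.2 ± 3.91%, the NKR-P1 genes 11.1 ± 0.574%, KLRE and KLRI 4.55 ± 0.126%, and KLRG 0.170 ± 0.0231%.

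**Figure D1:**
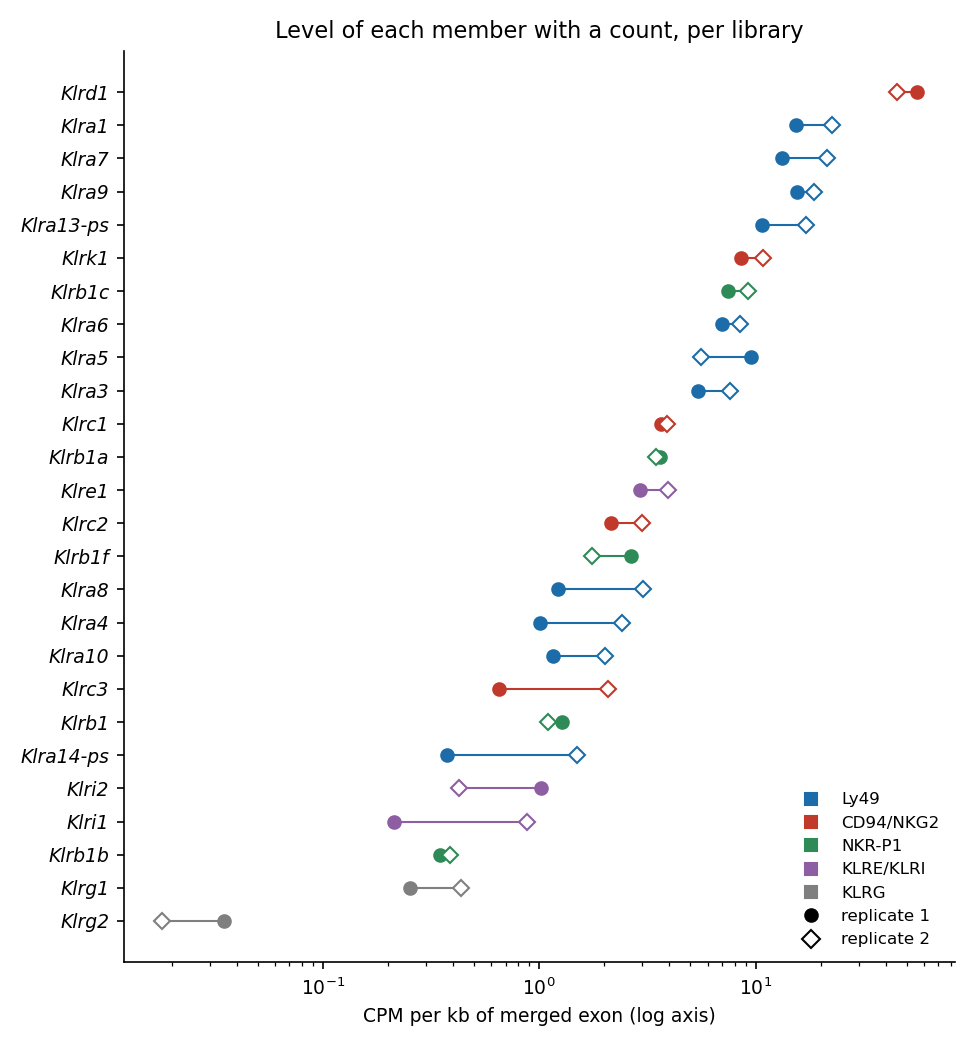
CPM per kb of merged exon (log axis) of the 26 members with a count in either library; filled circles are replicate 1, open diamonds replicate 2, and colours mark the groups of the family. Klrd1 lies apart at 45.3 to 55.8 CPM per kb, 4 Ly49 genes follow between 10.7 and 22.5 CPM per kb, and Klrg2 is lowest.

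Klrd1, which encodes CD94, the partner chain of the NKG2A, NKG2C and NKG2E receptors, was the highest member per length in both libraries. Its counts were 1195 and 942 in the order of the replicates, or 55.8 and 45.3 CPM per kb. These values lay above those of 97.3% and 96.2% of protein-coding genes in the respective library, and they did not overlap with the values of the next member, Klra1. Klrd1 went the other way from most of the family, being lower in replicate 2 by less than 2-fold (log2 ratio of replicate 2 to replicate 1 -0.30, 95% counting interval -0.43 to -0.18).

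Klrk1 encodes NKG2D, an activating receptor for stress-induced ligands, and held the most counts of any member in replicate 2. It had 1025 and 1259 counts, or 61.3 and 77.5 CPM. Because its annotated exons, including retained introns, add up to 7183 bases, this came to 8.53 and 10.8 CPM per kb, and Klrk1 stood at 0.196 ± 0.0604 of Klrd1 per length. With its longest protein-coding transcript as the length, a choice made after seeing the data, Klrk1 moved to 21.7 ± 3.59 CPM per kb, the second place of the family. Hcst, the DAP10 adaptor of NKG2D, was at 79.5 and 90.1 CPM per kb, 8.84 ± 0.683 times the merged-exon level of Klrk1.

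The NKG2 chains that pair with CD94 were all far below it. Klrc1, encoding the inhibitory NKG2A, had 122 and 126 counts, or 3.67 and 3.91 CPM per kb, the closest agreement between libraries among the CD94/NKG2 genes. Klrc2, encoding the activating NKG2C, had 209 and 282 counts, or 2.15 and 2.99 CPM per kb. Klrc3, encoding NKG2E, had 8 and 25 counts and did not reach 1 CPM in replicate 1. Klrd1 was at 6.82 ± 2.53 times the sum of the 3 NKG2 chains per length, 8.61 in replicate 1 and 5.04 in replicate 2. This ratio was 4.17 with only sequence found in no other gene as the length and 2.85 with no length.

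The order of Klrc1 and Klrc2 could not be settled from these counts. Klrc1 was at 1.51 ± 0.284 times Klrc2 on merged exons, at 0.730 ± 0.137 times on the longest protein-coding transcripts, and at 2.08 times when only sequence found in no other gene was used as the length. The reason for looking at that last scale is visible in the sequences. The tables count only reads that align to a single place, and these genes share stretches at least as long as a read of 50 bases. Of the windows of 50 bases in Klrc1 transcripts, 61.4% occur in no other gene's transcripts, and 742 of them also occur in Klrc2, while Klrc2 and Klrc3 share 244. The coding sequences are 81.0% identical between Klrc1 and Klrc2 and 88.5% identical between Klrc2 and Klrc3. One such window is identical in Klrc1 (chr6:129677249-129677298, minus strand, GRCm38) and Klrc2 (chr6:129658768-129658817, minus strand), inside a coding exon of each, and a read that falls on it cannot be assigned to either:
Klrc1 and Klrc2: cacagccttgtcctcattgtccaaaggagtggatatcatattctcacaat

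The inhibitory and the activating chain differ at the start of the coding sequence, where the ITIM of NKG2A lies. In the first 60 coding bases Klrc2 and Klrc3 are identical to each other. Compared base by base without gaps, they differ from Klrc1 at 37 positions, which are in capitals below. Differences are not confined to the start: aligned over the whole coding sequence, Klrc1 and Klrc2 have 121 mismatched and 18 gap positions. The stretches are chr6:129678851-129678910 for Klrc1, chr6:129660497-129660556 for Klrc2 and chr6:129643229-129643288 for Klrc3, each within a single exon on the minus strand of GRCm38:
Klrc1: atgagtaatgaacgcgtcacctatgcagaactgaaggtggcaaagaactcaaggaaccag
Klrc2: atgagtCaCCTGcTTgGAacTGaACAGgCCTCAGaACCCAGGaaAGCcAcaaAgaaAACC
Klrc3: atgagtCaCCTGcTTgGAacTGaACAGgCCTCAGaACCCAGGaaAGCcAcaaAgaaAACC

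Among the Ly49 receptors, which in mice bind classical MHC class I as the KIR receptors do in humans, 4 genes stood at similar levels at the top. Klra1 (Ly49A) had 456 and 646 counts, or 15.4 and 22.5 CPM per kb. Klra7 (Ly49G) had 282 and 438 counts, or 13.3 and 21.3 CPM per kb, and Klra9 (Ly49I) had 332 and 388 counts, or 15.5 and 18.7 CPM per kb. The fourth was Klra13-ps, annotated as a pseudogene, with 186 and 288 counts or 10.7 and 17.0 CPM per kb. The ranges of these 4 genes over the libraries overlapped, so their order was not resolved.

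Below them came Klra6 (Ly49F), Klra5 (Ly49E) and Klra3 (Ly49C), at 7.73 ± 1.08, 7.54 ± 2.76 and 6.51 ± 1.56 CPM per kb, again with overlapping ranges. Klra6 had 130 and 154 counts and Klra3 had 112 and 153 counts. Klra5 had 222 and 127 counts and was the only one of the 11 Ly49 genes tested between the libraries with the lower value in replicate 2. Klra10 (Ly49J) had 16 and 27 counts and did not reach 1 CPM in replicate 1, and Klra14-ps had 7 and 27 counts. Klra2 (Ly49B), described on myeloid cells, Klra17 (Ly49Q), described on plasmacytoid dendritic cells, and the pseudogene Klra11-ps had 0 counts in both libraries.

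The activating Ly49 genes were low, and so were some Ly49 genes with an ITIM. Of the latter, Klra10 was at 1.16 and 2.02 CPM per kb, and Klra2 and Klra17 were at 0. Klra8, which encodes Ly49H, the receptor for a mouse cytomegalovirus protein, had 24 and 58 counts, or 1.22 and 3.03 CPM per kb. Klra4, encoding Ly49D, had 21 and 49 counts, or 1.01 and 2.42 CPM per kb. The 9 Ly49 coding genes with an ITIM summed to 67.3 and 86.2 CPM per kb, against 2.23 and 5.45 CPM per kb for Klra4 and Klra8 together. In counts, Klra4 and Klra8 held 2.82% of the reads on coding Ly49 genes in replicate 1 and 5.25% in replicate 2, and Tyrobp, their adaptor, was at 1.73 and 4.68 CPM.

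The inhibitory and activating genes differ in codon 8, where the ITIM has its tyrosine. The first 45 coding bases are shown for the 3 highest ITIM-carrying Ly49 genes and for both genes without it, with codon 8 in capitals. Against Klra7, both Klra8 and Klra4 carry the substitution A23T, counted from the first coding base, which turns the tyrosine codon into a phenylalanine codon. All stretches lie within a single exon on the minus strand of GRCm38, at chr6:130380618-130380662 (Klra1), chr6:130231573-130231617 (Klra7), chr6:130191257-130191301 (Klra9), chr6:130128116-130128160 (Klra8) and chr6:130065258-130065302 (Klra4):
Klra1: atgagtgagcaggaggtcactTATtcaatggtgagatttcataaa
Klra7: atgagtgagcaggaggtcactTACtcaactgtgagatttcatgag
Klra9: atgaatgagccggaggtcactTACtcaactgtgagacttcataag
Klra8: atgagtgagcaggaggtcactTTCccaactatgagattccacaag
Klra4: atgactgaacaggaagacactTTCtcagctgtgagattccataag

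The Ly49 genes range from close copies to distant relatives. Their coding sequences reach 96.9% identity for Klra9 and Klra10 and 95.9% for Klra3 and Klra9 and go down to 59.4% for Klra2 and Klra4, while Klra8 is 91.9% identical to the inhibitory Klra9 and 77.4% identical to the activating Klra4. The share of 50-base windows found in no other gene ranged from 60.2% for Klra10 and 66.9% for Klra8 to 100% for Klra2 and Klra17. Klra3 shares 167 windows with Klra9, Klra8 shares 230 with Klra14-ps, and Klra7 shares 155 with Klra13-ps. One window shared by Klra3 (chr6:130335738-130335787, minus strand) and Klra9 (chr6:130191240-130191289, minus strand) lies over the ITIM itself:
Klra3 and Klra9: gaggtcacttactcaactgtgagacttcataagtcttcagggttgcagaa

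With only windows found in no other gene as the length, Klra9 went from 17.1 to 25.0 CPM per kb and from the fourth to the second place of the family, Klra8 from 2.12 to 3.31 and Klrc1 from 3.79 to 6.03 CPM per kb. Reads on shared windows were not counted, so the merged-exon scale can understate copied genes relative to Klrd1 and Klrk1, of whose windows 100% were found in no other gene.

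**Figure D2:**
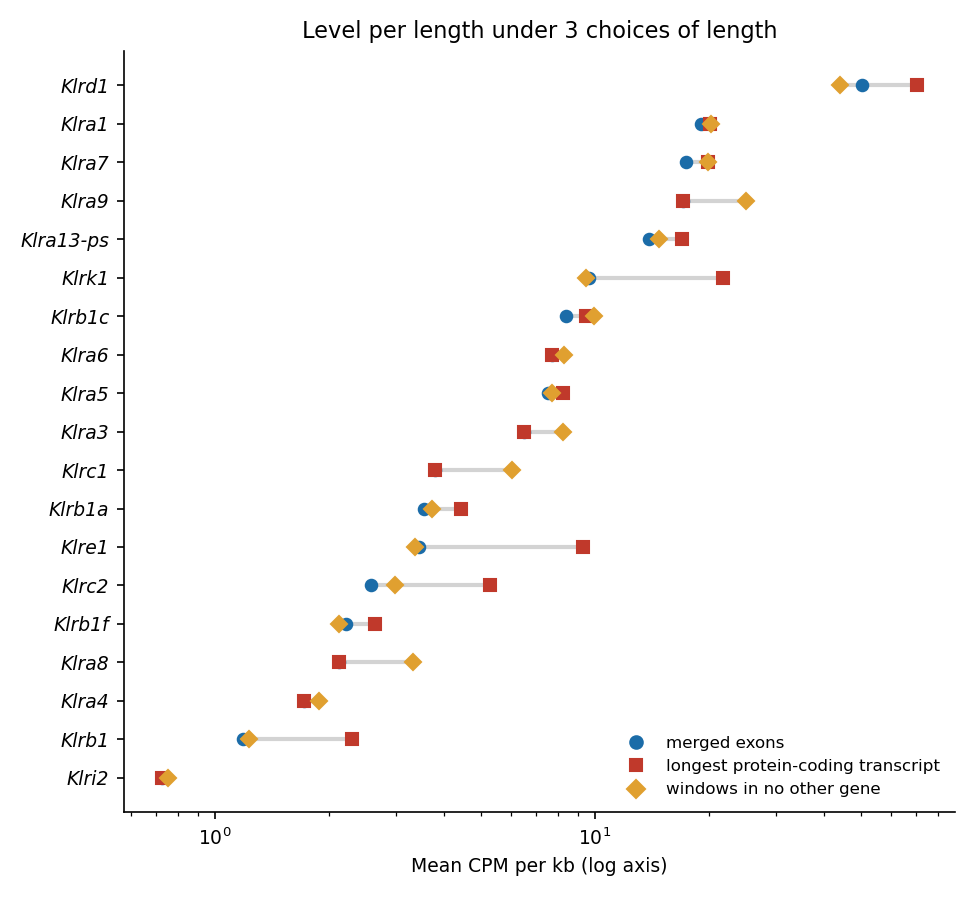
Mean CPM per kb (log axis) of the 19 members with at least 1 CPM in both libraries, with the merged exons (circles), the longest protein-coding transcript (squares; for the pseudogene, its longest transcript) or the windows found in no other gene (diamonds) as the length. Klrk1, Klre1, Klrc2 and Klrb1 move up with the coding transcript, whereas Klra9, Klra8 and Klrc1 move up with the windows found in no other gene.

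The NKR-P1 receptors recognise Clr proteins, which are lectins themselves and are encoded by Clec2 genes interspersed with them. Klrb1c, which encodes the antigen of the NK1.1 antibody and is an activating receptor used to mark NK and iNKT cells in C57BL/6 mice, led this group with 370 and 446 counts, or 7.47 and 9.27 CPM per kb. Klrb1a followed at 3.63 and 3.47 CPM per kb and Klrb1f at 2.66 and 1.76 CPM per kb, and Klrb1c was at 2.36 ± 0.435 times Klrb1a per length. Klrb1 had 30 and 25 counts. Klrb1b, encoding an inhibitory receptor for Clec2d, had 13 and 14 counts and did not reach 1 CPM, and Klrb1-ps1 was at 0. Klrb1b and Klrb1c overlap on the same strand with exons of the gene model Gm44511, over 599 and 413 bases, so that reads there could be set aside as ambiguous and both levels are uncertain.

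Klre1, whose product forms heterodimers with KLRI1 and KLRI2, had 171 and 224 counts, or 2.92 and 3.95 CPM per kb. Klri1, the inhibitory partner, had 3 and 12 counts, and Klri2, the activating partner, had 67 and 27 counts, or 1.02 and 0.425 CPM per kb. Klrg1, an inhibitory receptor for cadherins that is associated with late effector T cells, had 6 and 10 counts, and Klrg2 had 2 counts and 1 count. The cadherin ligand Cdh1 was present at 74.0 and 95.6 CPM, whereas Cdh2 was at 0.

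In the order of levels per length, the ranges of the libraries separated Klrd1 from Klra1, Klra3 from Klrc1, Klrc1 from Klrb1a and Klrg1 from Klrg2. All other neighbours among the members with a count overlapped, and the gap between Klrc1 and Klrb1a, 3.67 against 3.63 CPM per kb, was small. With the longest protein-coding transcript as the length this pair turned round, Klrb1a standing at 4.55 and 4.35 CPM per kb and Klrc1 at 3.67 and 3.91.

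All members lie on chromosome 6, and 28 of them lie within chr6:128609227-131247362, 2.64 Mb of GRCm38, with Klrg1 and Klrg2 outside it. Neighbouring genes often stood at unlike levels. Klrd1, at 50.5 CPM per kb, lies between Klre1 at 3.44 and Klrk1 at 9.66 CPM per kb. Within the Ly49 genes, Klra10 at 1.59 CPM per kb lies between Klra7 at 17.3 and Klra13-ps at 13.9 CPM per kb. The Rosa26 locus that received the CD8 cDNAs is 15.5 Mb from this region on the same chromosome. Ly49 genes differ in number and sequence between mouse strains, and whether the region around the targeted locus is of C57Bl/6 origin in these mice was not tested.

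**Figure D3:**
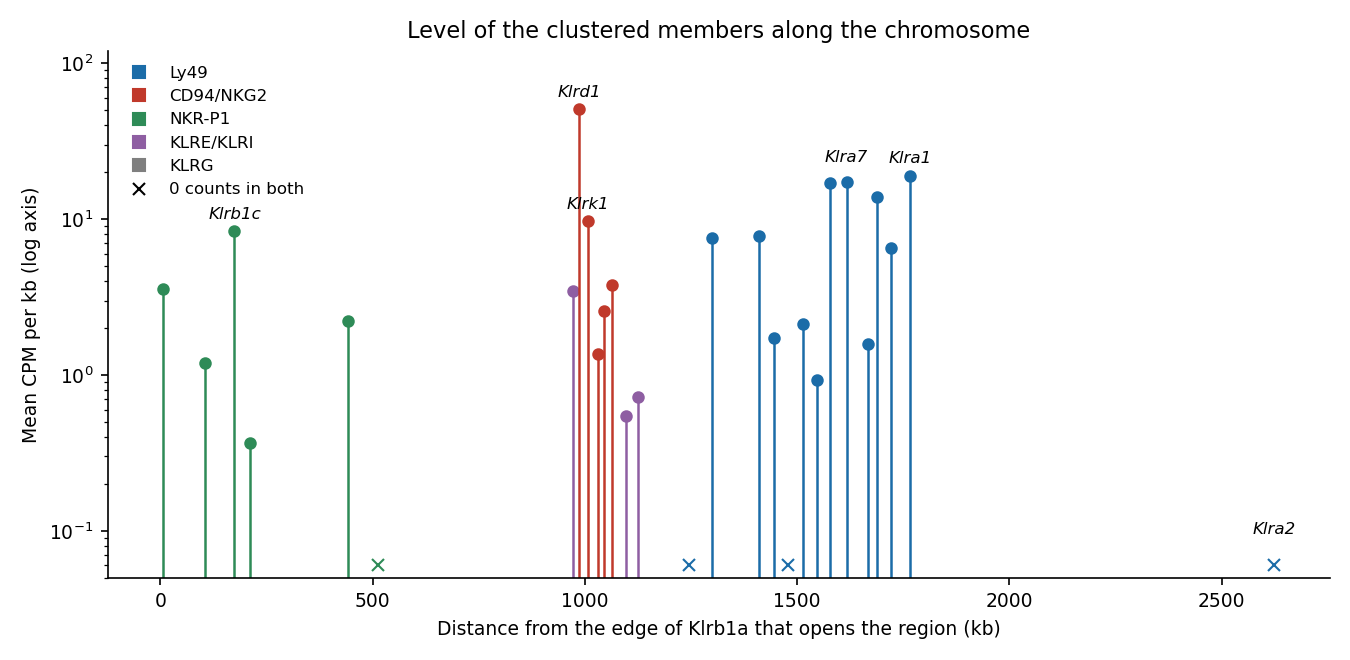
Mean CPM per kb (log axis) of the 28 clustered members against the distance in kb of the middle of each gene from the edge of Klrb1a that opens the region on chromosome 6; crosses at the bottom of the axis are members with 0 counts in both libraries. NKR-P1 genes lie at the left, Klre1, the CD94/NKG2 genes, Klri1 and Klri2 in the middle and the Ly49 genes at the right, with high and low members next to each other in each group.

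Promoter sequences from RefSeq (GRCm38.p6, 250 bases before to 50 after a gene's start) were matched by symbol for 23 members, 11 of them Ly49 genes. The letters TATAAA were found on either strand in 9 of the 23, against 15.7% of the 27025 genes with a promoter in the table, and 7 of these 9 were Ly49 genes. The letters TGTGGT, the core of a Runx site, were found in 8 of the 23, against 18.9% of all genes, and GGTGTGA, a site bound by T-box factors, was found only in Klra1, against 4.60% of all genes. The motifs were searched independently, so an overlap between them was allowed, and a match describes the letters only. The Ly49 and the NKG2 genes include close copies, so matches within these groups may not be independent. The comparison with all genes did not allow for this.

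The libraries were compared gene by gene with a two-sided exact binomial test of the counts, adjusted by the Benjamini-Hochberg method over all 15949 genes with at least 10 counts in sum. This compares the 2 libraries and not conditions. Of the 25 members tested, 5 passed both thresholds, a ratio of 2 or more in either direction and an adjusted p below 0.05, against 1.52% of all genes tested. Klri2 was the only one higher in replicate 1, against 0.577% of all genes. The 4 higher in replicate 2, against 0.94% of all genes, were Klra14-ps, Klrc3, Klra8 and Klra4, with log2 ratios of 1.99, 1.69, 1.32 and 1.26 and adjusted p from the exact binomial test of 0.00499, 0.0207, 0.00137 and 0.00729.

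All 5 rest on few reads. Each had under 100 counts in sum, a range that holds 10 of the members tested and in which 3.76% of all genes were called. With edgeR's exact test and a biological coefficient of variation of 0.1, which allows for variation between animals, 0 members were called, against 0.376% of all genes, 10 of the 25 had an unadjusted p under 0.05, against 5.17% of all genes, and the lowest adjusted p of a member was 0.137.

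Smaller shifts ran through much of the family. At any fold, 15 of 25 members had an adjusted p under 0.05 in the exact binomial test, against 16.3% of all genes, 12 higher in replicate 2 and 3 higher in replicate 1. The 3 were Klrd1, Klra5 and Klri2. At any fold this test passes more genes at higher counts, and the 16.3% was not matched for counts. Other lists also held genes under 0.05 at any fold, such as Lck and Cd3g, and genes that were not, such as Syk and Cd3d. Of the 11 Ly49 genes tested, 10 were higher in replicate 2, with a median log2 ratio of 0.67, and of the 14 other members 9 were, with a median of 0.23. Over all genes tested the median was 0.08 and 65.4% were higher in replicate 2, and with edgeR's TMM factors that share was 49.5%, the Ly49 median was 0.59 and no member changed direction.

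**Figure D4:**
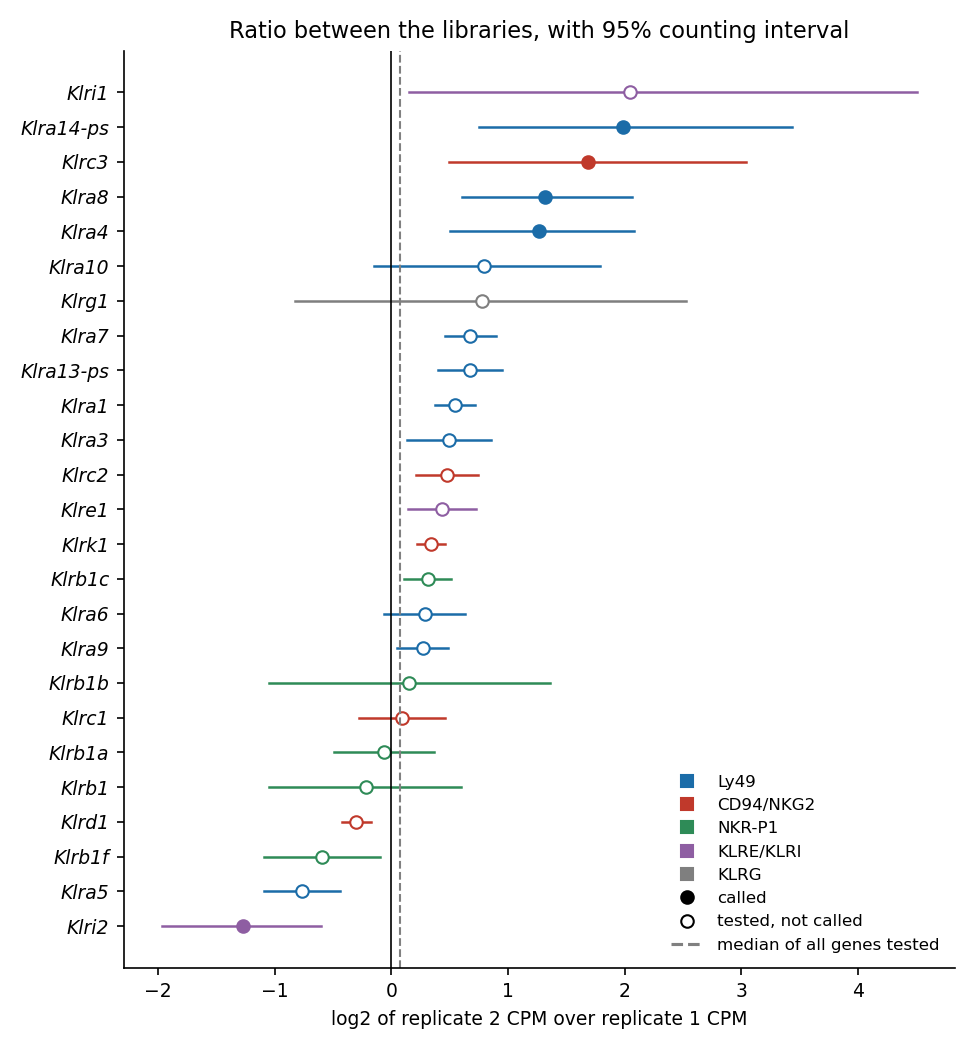
Log2 ratio of replicate 2 to replicate 1 CPM of the 25 members tested, with the 95% interval from the counts alone; filled points were called, open points were not, and the dashed line is the median of all genes tested (0.08). The Ly49 genes other than Klra5 lie to the right of 0, and Klrd1, Klra5, Klrb1f and Klri2 lie to the left with intervals clear of 0.

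Some NK cell markers were also higher in replicate 2, and others were not. Of 14 NK cell marker symbols listed, 13 were among the genes counted. All 13 reached 1 CPM in both libraries, from Itgam at 1.57 CPM to Spn at 602 CPM. Their sums were 1369 and 1513 CPM, with 6 of them higher and 7 lower in replicate 2. Eomes, a T-box factor of memory CD8 T cells and NK cells, had 196 CPM in the first library and 355 in the other, a difference of less than 2-fold. Ncr1 (NKp46) was at 2.69 and 6.89 CPM and Gzma at 4.36 and 14.6 CPM, and these with Tyrobp were the 3 NK cell markers called between the libraries, whereas Gzmb was at 27.6 and 20.4 CPM and Itgam at 2.03 and 1.11 CPM. Their part in the values of the family was not tested. In bulk RNA, more cells carrying a receptor and more RNA per cell cannot be told apart. Nor can iNKT cells, other T cells that carry these receptors and any NK cells that passed the sort. Cells were sorted as TCRβ high, and the share of each cell type among them was not tested.

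The median log2 ratio of the NK cell markers tested was -0.05, that of the possible regulators 0.14, that of the signalling partners 0.16 and that of the ligands 0.01, against 0.08 over all genes. Of the other genes examined, none of the 17 possible regulators differed at least 2-fold between the libraries, and all 17 reached 1 CPM. At any fold, Eomes, Runx3 and Il2rb were among those with an adjusted p under 0.05 in the exact binomial test, and Tbx21 was not. Besides Eomes the 17 included Runx3 at 228 ± 15.9 CPM, Tbx21 (T-bet) at 29.0 ± 1.93 CPM and Il2rb, the IL-2 and IL-15 receptor β chain, at 558 ± 49.2 CPM. Of the 17 signalling partners, 14 reached 1 CPM and only Tyrobp was called. Ptpn6, which encodes the phosphatase SHP-1 that ITIMs recruit, was at 493 ± 14.4 CPM. Of the 22 ligand genes listed, 18 were among the genes counted, 9 reached 1 CPM and none was called. H2-K1 and H2-D1, the classical MHC class I ligands of Ly49 receptors, were at 930 ± 46.5 and 695 ± 3.92 CPM per kb, and H2-T23, encoding the Qa-1 ligand of CD94/NKG2A, at 108 ± 1.90 CPM per kb. Among the Clec2 ligands of NKR-P1 receptors, Clec2d and Clec2i were at 101 ± 2.28 and 31.2 ± 0.0850 CPM per kb while Clec2f was at 0, and of the NKG2D ligands Raet1e was at 0 and Ulbp1 at 1.02 ± 0.0913 CPM per kb.

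Other lectin genes did not all follow. Of 15 examined 3 reached 1 CPM, Cd69, Clec2d and Clec2i, against 26.2% of all genes and 48.9% of protein-coding genes. At 0 in both libraries were 5 of the 15. Markers of other cell types were also examined. Of 9 myeloid markers 1, Csf1r, reached 1 CPM, with sums of 10.3 and 12.9 CPM. Of B cell genes, Cd79b was at 11.7 and 14.0 CPM and Ighm at 133 and 136 CPM. Of 6 gamma delta T cell markers listed, only 2, Trdc and Sox13, were among the genes counted. Both reached 1 CPM, with sums of 6.51 and 8.19 CPM. Of 8 iNKT cell markers 7 did, Zbtb16 among them at 18.2 and 21.6 CPM. None of these genes was called between the libraries.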

How the data were processed

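RNA from sorted thymocytes of a single group was analysed in 2 libraries. The authors prepared poly(A) libraries, sequenced single-end reads of 50 bases, aligned them with TopHat2 2.1.1 onto mm10 (GRCm38) and counted reads per gene with HTSeq 0.6.1. The deposited values are raw counts per gene symbol, without normalization. The annotation and strand setting used for counting are not given in the sources used here. Lines of each table that name no gene were left out of totals (55.9% of uniquely aligned reads in both libraries were on no feature).

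Counts were scaled to CPM of the total on genes, and to CPM per kb with merged exons from GENCODE M21 (GRCm38), in which all 30 members were found. Intervals (95%) and the limit of 3 counts hold for counting error alone, because without molecular identifiers 1 molecule can give several reads. The libraries were compared with exact binomial tests (two-sided, scipy 1.17.1) adjusted by Benjamini-Hochberg in statsmodels 0.14.6. The procedure was tested on counts simulated without variation between animals. Only genes with more counts than the members called between the libraries were changed there, so that test does not bear on these calls. Windows of 50 bases were searched in all GENCODE transcripts on both strands. The plan named windows unique in the genome, but transcripts were used instead. The ITIM was searched in the N-terminal part of the longest coding sequence of each gene. Every member is accounted for, and those with at least 1 CPM in both libraries are named with their values. From each other list, the genes with the highest CPM per kb and those at 0 could be named. Ncr1, Gzma, Gzmb, Itgam, Cdh1, H60b, Ulbp1, Tbx21, Csf1r, Zbtb16, Cd79b, Ighm and Gm156 were named after their values were seen. The members and lists were chosen with earlier results of these data known. Alternatives used edgeR 4.0.16, DESeq2 1.42.0, other totals, minima and lengths, and each library alone. Python 3.11.15 and R 4.3.3 were used.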

Additional observations from a re-analysis of the deposited data

How the results depend on the processing

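The summed level of the family moved from 337 to 393 CPM when mitochondrial and ribosomal RNA genes were left out of the totals, and stayed within 1 SD with edgeR's TMM or DESeq2's size factors. It ranged from 310.5 to 363 CPM with either library left out. The number of members with at least 1 CPM went from 19 to between 14 (minimum of 5 CPM) and 21 (minimum of 0.5 CPM), and to between 19 and 22 with either library left out. The number of members that differed between the libraries went from 5 to 0 with a minimum of 100 summed counts or with edgeR's exact test, and to 15 with no minimum fold, and the same 5 genes were called under every other scaling and minimum tried. The ratio of Klrc1 to Klrc2, 1.51 on merged exons, became 0.826 with the longest transcript, 0.730 with the longest protein-coding transcript (added after seeing the data), 2.08 with only windows in no other gene and 0.515 with no length, so its direction depends on the length used. The ratio of Klrd1 to the sum of Klrc1, Klrc2 and Klrc3, 6.82 on merged exons, became 4.17 with only windows in no other gene and 2.85 with no length. Per length, 6 of 19 named members moved by more than 1 SD with the longest protein-coding transcript and 5 with only windows in no other gene. No paired analysis was possible because the libraries form a single group. With 2 libraries, SD values rest on a single difference each, and members under about 100 counts are limited by depth.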
